A study of Mus musculus with 13 samples.

Results

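The Fos and Jun family genes Fos, Fosb, Fosl1, Fosl2, Jun, Junb and Jund were examined for ESR1 occupancy in mouse muscle fibroblasts. They are 7 of the 21938 protein-coding genes of the annotation (GENCODE vM21, mm10). Each gene was followed over its body plus 50 kb on either side, which held 1100 of the 686823 peaks in 12 peak lists. Peaks of different lists that shared at least 1 bp were joined, giving 191 regions at these genes of 228284 in all. The genes were taken by name and not by their values.

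ESR1 is estrogen receptor alpha, a receptor that binds DNA once estradiol (E2) occupies it. ESR1 ChIP-Seq recovers DNA crosslinked to the receptor, and a peak is a stretch where more fragments were recovered than in its surroundings. The cells were primary fibroblasts from the lower abdominal muscle of Aromhum mice, which carry the human aromatase gene on the FVB/N background and make estrogen in this tissue. All groups therefore share that transgene, passage 1 culture and overnight serum starvation. Cells received ethanol and DMSO (vehicle), 10 nM E2, 10 nM E2 with 100 nM fulvestrant, or 100 nM fulvestrant, with E2 or ethanol given for 1 h before crosslinking and fulvestrant or DMSO added ahead of it. Fulvestrant is an antagonist that occupies the receptor and leads to its degradation. Each treatment had 3 libraries, and an input library is not analysed here. The labels give no animal age and do not say whether the 3 libraries came from separate cultures or animals, so p-values measure the spread between these samples, which may be technical. Peak lists hold no expression values, so the fibroblast label could not be checked against markers, and in these bulk cells fewer bound cells and less binding per cell cannot be told apart.

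The Fos proteins (Fos, Fosb, and the Fos-like proteins Fosl1 and Fosl2) pair with a Jun protein (Jun, Junb, Jund) to form AP-1, a basic leucine zipper factor that binds the sequence TGACTCA. Fos and Jun are the classic immediate-early genes: growth factors and stress switch on their transcription within minutes, before any new protein is made. ESR1 can bind DNA directly at an estrogen response element (ERE), an inverted repeat of GGTCA, or sit on DNA through AP-1 and other factors, so these genes are both possible targets and partners of the receptor. In fibroblasts AP-1 is known for its part in proliferation and matrix gene expression.

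The lists held 34293 to 104571 peaks. The E2 replicate 1 and fulvestrant replicate 2 libraries stood apart: 59.4% and 27.9% of their peaks lay mostly in repeat-masked sequence, against 5.57% to 7.79% in the other 10. E2 replicate 1 also had the longest list and the highest median fold enrichment, 4.15, against 2.82 to 3.17 in the other 11. Because fold and q-value move with the depth of a library, strength is given below as a rank percentile, the rank of a peak by q-value divided by the length of its own list, so that 1% is close to the top. The percentile still depends on list length: an equal rank scores better in a longer list, and E2 lists were the longest on average. At the Jund start, rank 885 in E2 replicate 1 was 0.846% and rank 913 in vehicle replicate 2 was 2.66%. Differences in percentile between treatments carry this dependence. No 2 libraries shared more than 0.0131% of their peaks with identical ends.

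A peak with its summit within 3 kb of the gene's 5′ end (a start-site peak) was present in every library at 4 of the 7 genes, Fosl2, Jun, Junb and Jund, whereas 29.0% of protein-coding genes had one in all 12. Fos had one in 11 libraries, which 36.0% of genes reached, and Fosl1 in 10. Fosb, the lowest of the 7, had one in 5 libraries, and 50% of protein-coding genes had one in at least 5. A start-site peak was absent from every library at 27.8% of protein-coding genes and at none of the 7. The genes differed widely in strength: the median percentile was 2.21% at Fosl2, 2.82% at Jund, 5.89% at Jun, 13.3% at Junb, 27.2% at Fos, 47.2% at Fosl1 and 54.0% at Fosb, over the libraries with such a peak. With a missing peak set to 100%, as in the tests, the medians were 28.7% at Fos, 48.9% at Fosl1 and 100% at Fosb. The ranges of neighbours in that order overlapped across libraries.

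**Figure D1:**
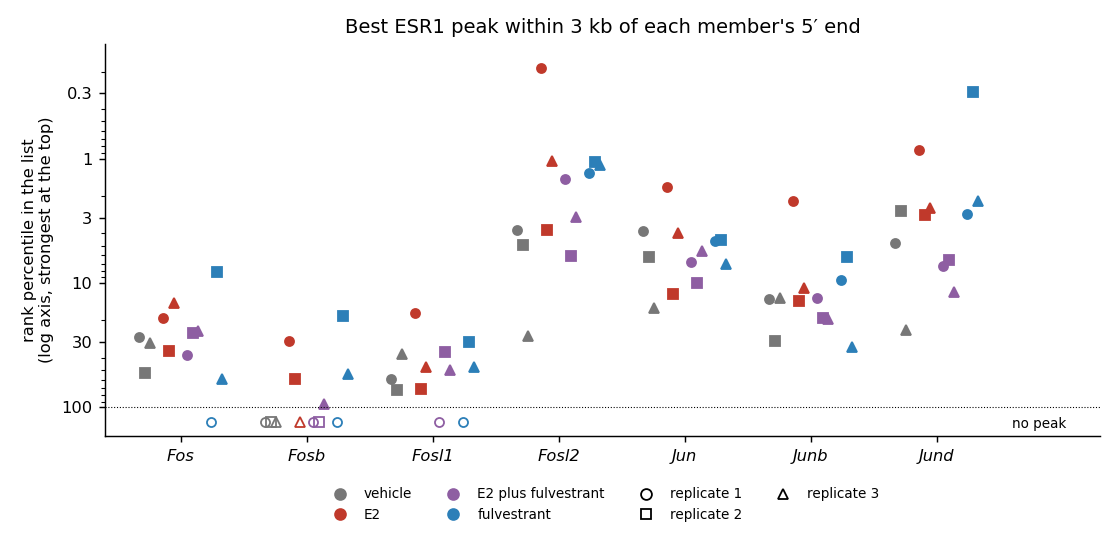
Rank percentile of the strongest start-site peak of each gene in each library (log axis, strongest at the top), with 1 point per library coloured by treatment, a shape for each replicate and open symbols for libraries without such a peak. Fosl2 and Jund reach 0.186% and 0.292%, while the 5 Fosb peaks lie between 18.6% and 94.8%.

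Fos (chr12:85473890-85477273, plus strand, 3.384 kb) encodes the founding member of the family. Its start-site percentile was 27.2%, 53.1% and 30.2% in vehicle, 19.2%, 35.0% and 14.4% with E2, 37.7%, 25.1% and 24.4% under E2 plus fulvestrant, and absent, 8.23% and 59.4% with fulvestrant. The values of all treatments overlapped, and the best and the worst were both from fulvestrant libraries. Fold enrichment ran from 2.56 to 5.83, and 19 to 56 fragments lay at the summit. In 10 of these 11 libraries the summit was upstream of the start, by up to 2283 bp, and in 1 it was in coding sequence. The strongest summit lay in the 250 bases before the start in 5 libraries and that of any peak in 7, and a peak covered at least part of these bases in 9. This stretch is shown because Fos summits recur in it; it is chr12:85473640-85473889, plus strand, from RefSeq (GRCm38.p6), with a TATAAA motif in capitals that begins 33 bases before the start:
Fos promoter: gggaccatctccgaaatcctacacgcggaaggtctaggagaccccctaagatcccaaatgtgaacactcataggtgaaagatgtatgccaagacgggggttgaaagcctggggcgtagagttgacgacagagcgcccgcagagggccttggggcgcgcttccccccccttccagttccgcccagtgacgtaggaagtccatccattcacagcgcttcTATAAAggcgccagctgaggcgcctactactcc

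Fosb (chr7:19302696-19310051, minus strand), whose product is inducible like Fos, had no start-site peak in any vehicle library. The peak was listed at 29.5% and 58.7% in E2 replicates 1 and 2, at 94.8% in E2 plus fulvestrant replicate 3, and at 18.6% and 54.0% in fulvestrant replicates 2 and 3. It rested on 12 to 20 fragments, so that 3 libraries without it in vehicle say only that it was not detectable at this depth. Its summits were close together, 507 to 638 bp upstream of the start. Fosl1 (chr19:5447547-5455946, plus strand), which encodes Fra-1, had summits at 496 to 2857 bp inside the gene, 6 in introns and 4 in coding sequence, with 15 to 26 fragments. The 2 libraries without it were E2 plus fulvestrant replicate 1 and fulvestrant replicate 1.

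Fosl2 (chr5:32135801-32157842, plus strand), which encodes Fra-2, had the strongest start-site occupancy of the family. Its percentile was 3.76%, 4.93% and 26.6% in vehicle, 0.186%, 3.77% and 1.05% with E2, 1.45%, 6.10% and 2.97% under E2 plus fulvestrant, and 1.31%, 1.06% and 1.13% with fulvestrant. The fulvestrant libraries all ranked it better than every vehicle library, and the E2 libraries overlapped vehicle. In vehicle replicate 3 the start-site peak was the lesser of a pair of peaks; the strongest peak of its region there ranked at 2.72%, so the whole start-site region, chr5:32132613-32144232, ran from 0.186% to 6.10%. Fold enrichment at the start was 2.78 to 27.6, the highest value coming from E2 replicate 1, and the other 11 libraries had 31 to 124 fragments at the summit. In 10 libraries the summit lay in the 5′ UTR of the longest annotated transcript, and the RefSeq start lies 671 bp downstream of the GENCODE start used here.

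Jun (chr4:95049034-95052222, minus strand) encodes the founding Jun protein, whose gene is known to be driven by AP-1 itself. Its start-site percentile was 3.84%, 6.19% and 16% in vehicle, 1.70%, 12.3% and 3.98% with E2, 6.82%, 9.93% and 5.58% under E2 plus fulvestrant, and 4.57%, 4.55% and 7.07% with fulvestrant. No treatment stood clear of another. Summits were upstream of the start in 10 libraries, at up to 849 bp, and in coding sequence in 2. None fell in the 250 bases before the start, although a peak covered part of them in 5 libraries. They are shown for the variant AP-1 motif TGACATCA, in capitals, which begins 45 bases before the start; this is chr4:95052223-95052472, minus strand, from RefSeq (GRCm38.p6):
Jun promoter: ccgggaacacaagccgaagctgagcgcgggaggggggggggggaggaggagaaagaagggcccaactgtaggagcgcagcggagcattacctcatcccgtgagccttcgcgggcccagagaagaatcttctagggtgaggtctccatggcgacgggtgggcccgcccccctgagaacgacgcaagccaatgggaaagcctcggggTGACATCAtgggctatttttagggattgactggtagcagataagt

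Of the 32851 RefSeq promoters of this length (250 bases before to 50 after the start, both strands searched), 3.62% hold TGACATCA and 13.6% hold TATAAA. Of 6 members with a RefSeq promoter, Jun alone held TGACATCA, Fos and Junb held TATAAA, and Fosb and Jund held the ERE arm GGTCA, found in 40.5% of all promoters. None held TGACTCA (5.20% of promoters) or the cAMP response element TGACGTCA (1.79%). These matches are a description of the letters in the window.

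Junb (chr8:84974484-84978718, minus strand), a Jun protein that often opposes Jun in growth control, had percentiles of 13.5%, 29.0% and 13.1% in vehicle, 2.19%, 14.1% and 11% with E2, 13.2%, 19% and 19.6% under E2 plus fulvestrant, and 9.56%, 6.18% and 32.8% with fulvestrant. The E2 values overlapped those of the 3 other treatments. The summit moved over 4362 bp between libraries, from 1761 bp upstream to 2601 bp downstream of the start. In the 3 E2 libraries it lay 2275, 2601 and 2327 bp downstream, and in fulvestrant replicate 2 at 2245 bp. In the other 8 libraries the strongest summit lay no further than 1393 bp downstream. E2 plus fulvestrant replicate 3 also had a peak with its summit 2231 bp downstream, at 25.4%, behind a better-ranked upstream peak. The position was not tested. A span of 4362 bp or less was found at 99.6% of the 6362 genes with a start-site peak in every library.

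Jund (chr8:70698949-70700616, plus strand) encodes the Jun protein that is expressed most steadily in resting cells. Its percentile was 4.73%, 2.66% and 24.1% in vehicle, 0.846%, 2.87% and 2.50% with E2, 7.35%, 6.55% and 11.7% under E2 plus fulvestrant, and 2.78%, 0.292% and 2.20% with fulvestrant. Every E2 library ranked it better than every E2 plus fulvestrant library, and vehicle overlapped all other groups. The position was steadier than at Fosl2, Jun and Junb, the other genes with a start-site peak in every library: all 12 summits fell between 70700192 and 70700274, a span of 82 bp, in the 3′ UTR (chr8:70700081-70700616) and 1243 to 1325 bp downstream of the start. Only 3.68% of the 6362 genes had a span this short or shorter, and the median was 568 bp. The RefSeq start of Jund lies upstream of the GENCODE start used here, at -1210 bp from it. The Jund summits are therefore further from the RefSeq start, and the RefSeq promoter searched for motifs above is at that other start. The summit also lay 158 bp from the annotated start of Gm11175, a gene on the opposite strand, and ChIP fragments carry no strand that would separate them.

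**Figure D2:**
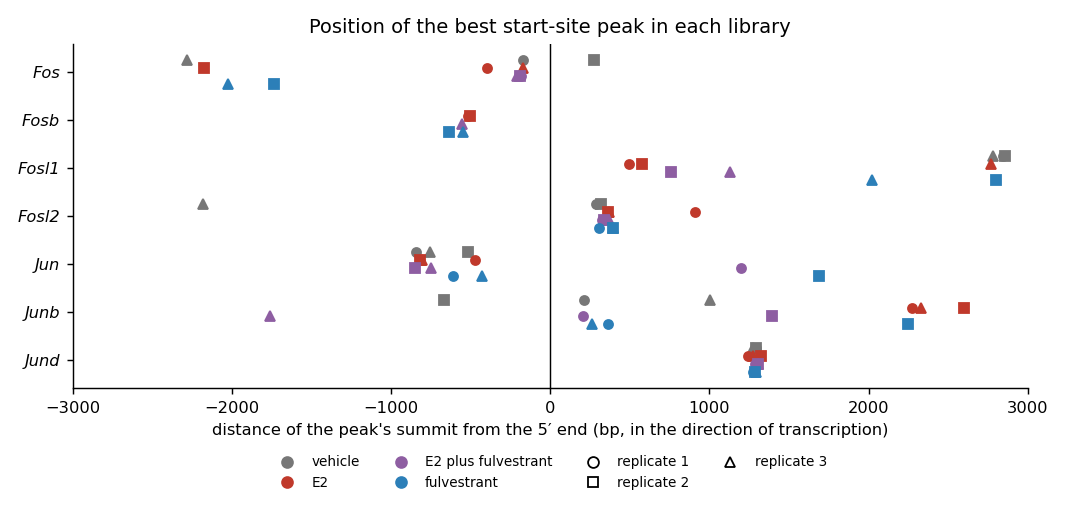
Position of the strongest start-site summit of each gene relative to its annotated 5′ end (bp, downstream positive), with 1 point per library coloured by treatment. The Jund summits stack within 82 bp, while the Junb summits spread over 4362 bp.

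Start-site rank was then compared between the 6 libraries given E2 and the 6 not given E2, by an exact two-sided permutation test with Benjamini-Hochberg adjustment over 15832 genes. No gene passed an adjusted p of 0.05, and 337 had an unadjusted p below it. The 7 members had permutation p of 0.361 to 0.848 and an adjusted p of 1. With 3 libraries a treatment an exact permutation test of a single gene cannot go below p = 0.1, so these comparisons are given by whether the libraries overlap. For E2 against E2 plus fulvestrant Jund was the single member ranked better without overlap, as were 12.4% of genes. For fulvestrant against vehicle it was Fosl2, as were 7.36% of genes, and for E2 against vehicle no member was, against 9.73% of genes.

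Regions present in all 12 lists allowed a fit across 7816 regions by limma on the log2 rank percentile, in which a negative difference is a better rank; 20 of them lay in the 7 windows, 10.5% of the 191 there against 3.42% of all regions. Between libraries given and not given E2, 0.755% of the 7816 were called at an adjusted p of 0.05 and none of the 20 were, the smallest adjusted p among them being 0.945. E2 against vehicle called 0.0384% of regions and none of the 20, with a median difference of -0.75 for the 20 and -0.66 for all. E2 against E2 plus fulvestrant called none of the 7816, of which 9.24% had an unadjusted p below 0.05. The median difference was -0.92 for the 20 and -0.78 for all.

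Among the 4 member start-site regions, Jund had the largest difference between E2 and E2 plus fulvestrant, -2.18 ± 0.94 (SE; limma adjusted p = 0.50), followed by Fosl2 at -1.72 ± 0.90. Neighbouring promoters in the windows lay between them, with -2.02 at Vasp, -1.98 at Lsm4 and -1.94 at Efemp2. Junb differed by -1.41 ± 0.85 and Jun by -0.73 ± 0.81. None of the 4 passed the test. Fulvestrant against vehicle gave -2.47 ± 0.94 at Jund and -1.67 ± 0.91 at Fosl2 (limma adjusted p = 0.87 for both). The median over all 7816 regions was -0.55 in this comparison, and the vehicle and fulvestrant libraries overlapped at Jund. The fulvestrant effect with E2 minus that without it was 4.65 ± 1.33 at Jund and 3.39 ± 1.28 at Fosl2 (limma adjusted p = 0.31 for both), where the median over all 7816 regions was itself 1.34. None of the 7816 passed this test and 15.5% had an unadjusted p below 0.05.

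The number of peaks in each window was compared next, because several regions around a gene can gain peaks without its start doing so. Fos had 6, 1 and 5 peaks in vehicle, 10, 9 and 11 with E2, 2, 2 and 6 under E2 plus fulvestrant, and 2, 9 and 3 with fulvestrant. Its mean was 10.0 ± 1.00 (SD, n = 3) with E2, 4.00 ± 2.65 in vehicle, 3.33 ± 2.31 under both agents and 4.67 ± 3.79 with fulvestrant. The E2 libraries lay above all vehicle and all E2 plus fulvestrant libraries and met fulvestrant replicate 2 at 9 peaks. Junb had 11, 9 and 10 peaks in vehicle, 18, 13 and 15 with E2, 8, 9 and 9 under E2 plus fulvestrant, and 8, 17 and 10 with fulvestrant. It showed the same order, with E2 above vehicle and E2 plus fulvestrant and fulvestrant replicate 2 again as the exception.

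Fosb had 8, 10 and 9 peaks in vehicle against 21, 19 and 11 with E2. Fosl1 had 22, 19 and 18 against 27, 26 and 29. Both were higher with E2 than in vehicle without overlap, but in each the E2 plus fulvestrant libraries reached into the E2 range, with up to 17 and 27 peaks. The E2 and vehicle libraries overlapped at Fosl2 (14 to 20 against 8 to 17), Jun (4 to 12 against 5 to 9) and Jund (13 to 21 against 10 to 14).

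**Figure D3:**
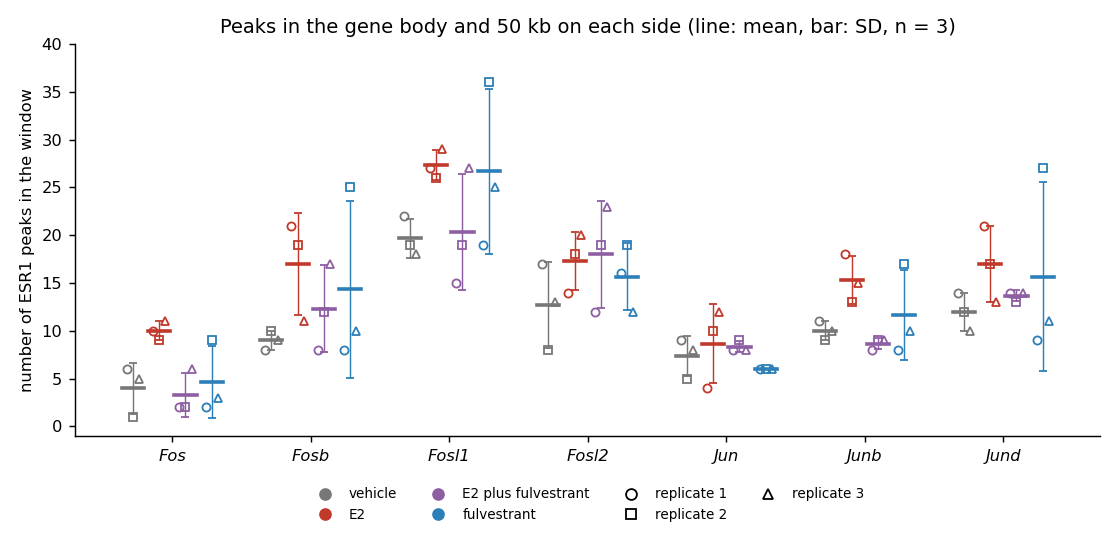
Number of ESR1 peaks in the gene body plus 50 kb on either side of each gene, with 1 point per library, a line at the mean of the 3 libraries of a treatment and bars for the SD. At Fos the E2 libraries hold 9 to 11 peaks and the vehicle and E2 plus fulvestrant libraries 1 to 6.

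These numbers did not pass a test. Between the 6 libraries given E2 and the 6 not given it, the exact permutation p of the members was 0.177 to 0.890 and the adjusted p 1; none of 21648 genes was called, and 3.49% had an unadjusted p below 0.05. For E2 against vehicle, Fos, Fosb, Fosl1 and Junb reached p = 0.1 (exact permutation), the smallest that 3 against 3 allows, and 16.1% of genes had E2 above vehicle without overlap. For E2 against E2 plus fulvestrant, Fos and Junb did so, as did 7.64% of genes. No member had fulvestrant above vehicle without overlap, against 4.11% of genes. Setting the 3 E2 libraries against the 9 others, Fos differed by 6.00 peaks (exact permutation p = 0.00909, adjusted p = 0.535) and Junb by 5.22 (exact permutation p = 0.0182, adjusted p = 0.535); none of 21648 genes was called and 6.92% had an unadjusted p below 0.05. By limma on log2(peak number + 1), which understates changes of low numbers, Fos differed by 1.32 ± 0.55 (SE) between E2 and vehicle (adjusted p = 0.33) and by 1.46 ± 0.55 between E2 and E2 plus fulvestrant (adjusted p = 0.62). For Junb the second difference was 0.75 ± 0.32 (adjusted p = 0.62).

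Among all genes the excess with E2 over E2 plus fulvestrant at Fos, 6.67 peaks, was above that of 96.9% of genes, and the excess of 6.67 at Junb and 7 at Fosl1 above that of 97.3% and 97.4%. Fosl2, at -0.667, was above 8.65% of genes, and the median gene had an excess of 1.33 peaks. Without E2 replicate 1 the excess at Fosl2 was 1 peak. The fulvestrant effect on peak number differed between cells with and without E2 by -14.0 peaks at Fosl1 (exact permutation p = 0.0433), -8.33 at Junb (exact permutation p = 0.0476) and -7.33 at Fos (exact permutation p = 0.0823), each with an adjusted p of 0.711. Of all genes 5.73% had an unadjusted p below 0.05 in this test and none passed.

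**Figure D4:**
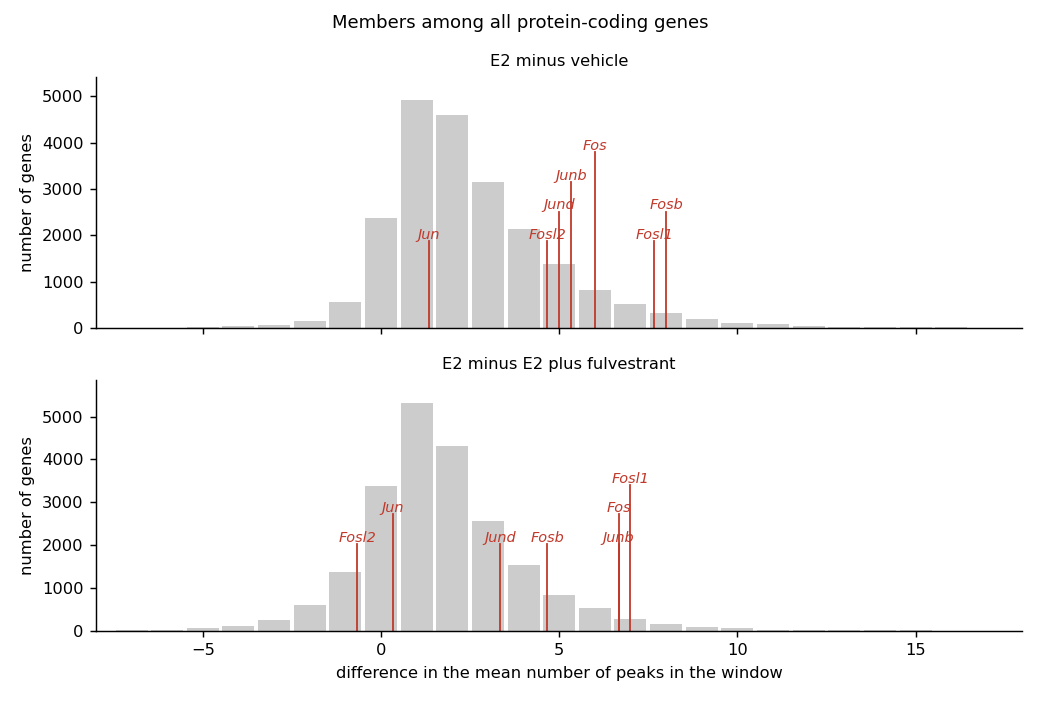
Distribution over 21648 protein-coding genes of the difference in mean peak number, E2 minus vehicle (top) and E2 minus E2 plus fulvestrant (bottom), with each Fos and Jun family gene marked at its value. In the bottom panel Fosl1, Fos and Junb sit above 96.9% of genes or more and Fosl2 above 8.65%. The differences are not scaled to list length.

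The direction of these differences depended on how the list length was treated, since E2 lists were on average 1.87 times as long as vehicle lists and 1.48 times as long as E2 plus fulvestrant lists. These averages include E2 replicate 1, with 104571 peaks against 60910 and 68971 in E2 replicates 2 and 3. The ratio of mean peak numbers at Fos was 2.5 and 3 for the same comparisons. Expressed per 100000 peaks of the library's own list, Fos was 11.7, 2.92 and 12.6 in vehicle, 9.56, 14.8 and 15.9 with E2, 4.89, 3.93 and 9.06 under E2 plus fulvestrant, and 4.70, 11.1 and 6.56 with fulvestrant. Fos thus remained higher with E2 than with E2 plus fulvestrant without overlap, as did 3.42% of genes, with means of 13.4 ± 3.40 and 5.96 ± 2.73 (SD, n = 3). It overlapped vehicle (9.07 ± 5.34). The other 6 genes were lower with E2 than in vehicle on this scale, Fosb barely (22.4 ± 7.88 against 22.5 ± 6.78), and Junb kept an excess over E2 plus fulvestrant (20.1 ± 2.51 against 16.9 ± 3.05) that overlapped. Fosl1 went the other way: 37.6 ± 6.25 (SD, n = 6) in libraries given E2 and 47.9 ± 5.56 in those not given it, without overlap (exact permutation p = 0.00216, adjusted p = 0.34), and 0.517% of genes were lower without overlap in this comparison. The margin at Fosl1 was narrow, 42.7 in E2 replicate 2 against 42.9 in vehicle replicate 1. The lower E2 means of Jun, Fosl2 and Fosb on this scale lean on E2 replicate 1, whose long list lay mostly in repeat-masked sequence. Jun had 3.83 there, against 16.4 and 17.4 in E2 replicates 2 and 3. Fosl2 had 13.4, against 29.6 and 29.0. The E2 values at Fosb were 20.1, 31.2 and 15.9, and its deficit was present only with E2 replicate 1 included. At Fosl1, E2 replicates 2 and 3 (42.7 and 42.0) also lay below every vehicle library (42.9 to 55.4). Their values at Jund (27.9 and 18.8) and Junb (21.3 and 21.7) lay below the vehicle means (29.2 and 24.3).

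Without E2 replicate 1 and fulvestrant replicate 2, Jun joined Fos and Junb with E2 above E2 plus fulvestrant without overlap, as did 13.2% of genes. Fos and Junb kept this by construction, since leaving libraries out cannot create overlap. When weaker peaks were left out (those under a −log10 q of 10) the Fos excess fell to 1.00 peak and overlapped, so most of the additional Fos peaks with E2 were below that limit. With this limit Fosb, Fosl1 and Junb had E2 above E2 plus fulvestrant without overlap, as did 19.3% of genes. Without E2 replicate 3, 4 members (Fos, Fosb, Junb and Jund) and 11.9% of genes did so over all peaks. Within 10 kb of the gene Fos and Junb again had E2 above E2 plus fulvestrant without overlap, against 4.22% of genes.

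The 17 Fos regions show where those peaks lay; the window holds no other protein-coding gene, and no region of it was in all 12 lists. Apart from the start site, 2 regions were in 8 or more lists and were singled out after their values were seen. The first, chr12:85485720-85487114, lay 12.5 kb downstream of the Fos start. It was listed in the 3 E2 libraries (12.8%, 50.9% and 39.3%) and the 3 fulvestrant libraries (49.7%, 44.7% and 66.4%), but in vehicle replicate 3 (74.1%) and E2 plus fulvestrant replicate 3 (67.0%) alone of their groups. Its fold enrichment was 2.44 to 7.37. The second, chr12:85521802-85522402, lay 48.2 kb downstream and was in 10 lists, absent from vehicle replicate 2 and fulvestrant replicate 3, with a fold of 1.88 to 4.56. Of the 17 regions 9 were in a single list.

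**Figure D5:**
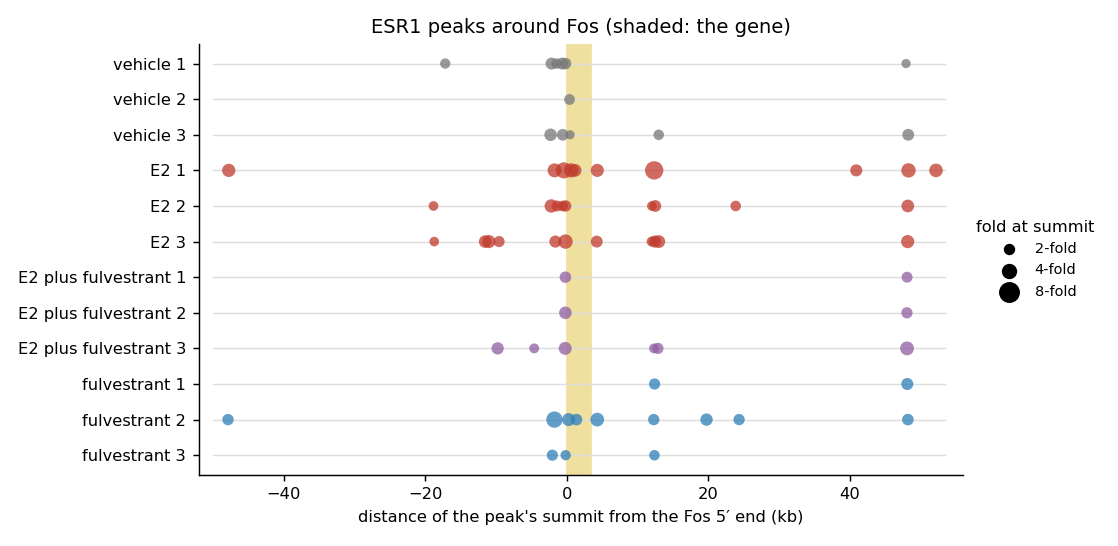
Peaks around Fos in each of the 12 libraries, by distance of the summit from the Fos start (kb) with 1 row per library, and marker size by fold enrichment. Peaks at the start and near 48.2 kb recur in most libraries, and those near 12.5 kb in 8.

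Presence or absence of single regions gave no call. Fisher's exact test of the 6 libraries given E2 against the 6 not given it called none of 228284 regions, and 0.162% had an unadjusted p below 0.05. The lowest p of a member region was 0.0606 (Fisher's exact test), at an intronic region 16 kb into Fosl2, chr5:32150834-32152491, found in 3 E2, 3 E2 plus fulvestrant, 2 fulvestrant and 0 vehicle libraries. A region at the 3′ end of Fosl2, chr5:32153665-32159065, was in every list, at 3.59% to 74.9% with a fold of 2.25 to 8.81.

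Of the 191 regions 70 were at the promoter of another gene, 46 intergenic, 42 intronic, 16 exonic and 17 at the promoter of the member itself. Of the 20 in every list 12 were at a neighbour's promoter and 4 at that of a member. Most peaks found in every library thus lay at neighbouring genes. The region with the best median rank in the Fosl1 window was the Efemp2 promoter, chr19:5473939-5476446, at 1.09% to 12.5%, and that in the Fosb window was the Ercc1 promoter, chr7:19344407-19346335, at 4.05% to 62.4%. For Junb it was the Asna1 promoter, chr8:85024805-85025578, at 2.05% to 22.9% in 11 lists, all but E2 replicate 1. Outside promoters the best region of the Fosb window was in an intron near Vasp (chr7:19264750-19268173, 13.3% to 63.6% in 12 lists) and that of the Jund window in a Pgpep1 exon (chr8:70645080-70650422, 3.86% to 28.3% in 12 lists). For Junb it was intergenic beside Hook2 (chr8:84984429-84986337, 14.2% to 70.4% in 9 lists), and for Jun an intron 39.7 kb downstream (chr4:95012322-95012832, 25.4% to 88.1% in 3 lists). Apart from the Jun start, further regions in 10 or more lists were singled out after their values were seen. In vehicle replicate 1 their summits lay at -49039 bp and 3747 bp from the start. The first was absent from E2 replicate 1 alone and ranked at 3.83% to 38.9%. The second was absent from vehicle replicate 2 and E2 replicate 1 and ranked at 31.3% to 97.2%. Fosb, Fosl1, Junb and Jund have 7, 11, 9 and 5 other protein-coding genes in the window, whereas Fos, Fosl2 and Jun have none. Of 84 regions found in 1 list only, 34 came from E2 replicate 1 and 25 from fulvestrant replicate 2.

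The strongest peak anywhere in the window, which these neighbours often supplied, ranked better with E2 than with E2 plus fulvestrant without overlap at Fosb, Junb and Jund, as at 13.1% of genes. At Fosb it was at 3.17%, 5.42% and 2.17% with E2 and at 7.26%, 10.8% and 7.51% with E2 plus fulvestrant. For fulvestrant against vehicle Fosl2 alone did so (7.49% of genes), and for E2 against vehicle no member did (14.2%). Leaving out a library cannot create overlap. Fosb, Junb and Jund in the first comparison, and Fosl2 in the second, therefore kept this by construction whichever single library was left out. With fewer libraries non-overlap is easier to reach, so members and other genes were added in some of these settings. Without E2 replicate 2, 6 members (33.3% of genes) ranked better with E2 than with E2 plus fulvestrant, and 4 (29.9% of genes) better than in vehicle; without fulvestrant replicate 1, 3 members (18.2% of genes) ranked better with fulvestrant than in vehicle, and without vehicle replicate 2, 2 members (9.87%). In the comparison of libraries given and not given E2 no gene was called, and 9.06% had an unadjusted p below 0.05.

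An ERE within 100 bp of the summit, searched on both strands as GGTCANNNTGACC with at most 1 mismatch, was found at 13 of the 1100 peaks, 1.18%, against 1.92% of all peaks and 0.755% to 3% in the single lists. These 13 peaks fell in 7 regions at Fosl1, Fosl2, Fosb and Jund; Fos, Jun and Junb had none. The following sites, on the plus strand of mm10 with the ERE in capitals, are shown because they match the motif of the receptor itself:
Fosl2 60.3 kb downstream, chr5:32196137-32196165: cgtgatgaTGTCATCATGACCcttagttc
Fosl2 intron 9.1 kb into the gene, chr5:32144875-32144903: ctagttttGGTCACTCTGACTagaccagg
Fosl1 window at 50.1 kb, chr19:5497661-5497689: acagagagGGTCACCTTGAGCcctgatat
Fosb 9.8 kb upstream, chr7:19319798-19319826: ggatctgaGGTCACAGTGACAcgcttgag
Jund window at the Pgpep1 promoter, chr8:70659235-70659263: cattccggGGTCAGGTTGACTccaggccc
Fosl1 window at 50.5 kb, chr19:5498033-5498061: aggagcatGGACAGCTTGACCtccacact
Fosb window at the Rtn2 promoter, chr7:19283017-19283045: ggcaactgGGGCATCCTGACCcggaggac
Most of these sites were seen in few libraries. The first was at the summit in 2 of 3 libraries with a peak there, both of them E2 libraries, and the third in 2 of 9. The Jund window site was at the summit in 1 of 12.

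The AP-1 motif TGACTCA was within 100 bp of 57 member peaks, 5.18%, against 4.44% of all peaks and 1.38% to 6.91% in the single lists. No Fos peak had it, and 3 Jun peaks, 7 Fosl2 peaks, 7 Fosb peaks, 11 Jund peaks, 14 Junb peaks and 15 Fosl1 peaks did. Most of those at Junb came from the Asna1 promoter, where it was near the summit in 10 of 11 libraries, and 7 of the 15 at Fosl1 from an Efemp2 exon, chr19:5479708-5482252, which is in all 12 lists. These regions recur across all treatments. Their sites, on the plus strand of mm10 with the motif in capitals, are:
Asna1 promoter in the Junb window, chr8:85025415-85025437: ccattttaTGAGTCAagggctca
Efemp2 in the Fosl1 window, chr19:5480354-5480376: cagacaagTGAGTCAacctgatg
Efemp2 in the Fosl1 window, chr19:5480762-5480784: cactcaacTGACTCAagtaatct
TGACGTCA was near the summit of 1 member peak, in the Jund window (0.0909%, against 0.218% of all peaks).

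Lists of related genes gave the setting for these values. Of 13 genes for other AP-1 partners (Atf, Maf, Batf and Jdp2), 8 had a start-site peak in every library, as did 9 of 14 other immediate-early genes and 7 of 9 genes for the kinases and serum response factors that act on Fos. None of the 36 passed a test in any comparison. In peak number, E2 exceeded vehicle without overlap at 6 of the 13 partner genes, at 2 of the 14 immediate-early genes (Egr2 and Nr4a1) and at 1 of the 9 upstream genes (Elk3), beside the 16.1% of all genes. The median differences were 3.67 peaks for the partner genes, 2.17 for the immediate-early genes and 2 for the upstream genes, against 2 for all genes. For E2 against E2 plus fulvestrant none of the 36 did so, beside 7.64% of all genes. The median differences there were 2, 1.67 and 0.667 peaks, and 1.33 for all genes.

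Across the 12 libraries the genes whose best-peak percentile followed that of Fos most closely were Ceacam19 (Spearman's rho 0.972), Ikzf2 (0.958) and Clybl (0.957), found among all genes and sharing the same libraries and list lengths. Among the members Junb was nearest at 0.580, followed by Jun at 0.538, and Fosb was least alike at 0.126. These are descriptions over 12 libraries with no test.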

How the data were processed

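ESR1 ChIP-Seq was done on 12 treated libraries and 1 input, which is not analysed here. The methods state that reads were trimmed with Trimmomatic 0.39 and mapped to mm10 by Bowtie2, that Picard 2.21.4 took out duplicates and mitochondrial reads were dropped, and that the authors called peaks with MACS2; 1 list per library is deposited. They also state that blacklisted peaks were filtered out in a later step and that input signal was subtracted in heatmaps, but not whether either applies to the deposited lists. The deposited lists hold per peak a fold enrichment at the summit (a ratio), −log10 p and −log10 q, a display score that was not used, and the summit offset. No read counts are in the files used, so the authors' count-based tests could not be run on them; fragments at the summit were recovered from fold and p, and came out whole at 100% of the 73 start-site peaks (tolerance 0.001 in log10 p).

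A peak was assigned to a gene when any part of it overlapped the gene body plus 50 kb. A region was kept when any of its peaks did so, so some summits lie outside the window. Start-site peaks were assigned by summit. A peak missing from a list took a percentile of 100 in tests. Peak number and best rank were tested by exact two-sided permutation over all protein-coding genes with a peak (924 arrangements for 6 against 6, smallest p 0.00216), presence by Fisher's exact test, and rank in regions of all 12 lists by limma 3.58.1 (R 4.3.3), with Benjamini-Hochberg adjustment over all features. Python 3.11.15, numpy 2.4.6, scipy 1.17.1, pandas 2.3.3 and matplotlib 3.10.9 were used. The text names every member, the region of each member with the best median rank, its best region outside promoters, its start-site regions and its ERE regions, and the 3 genes most like Fos. Other regions, said to be so in the text or shown for their AP-1 sites, were chosen after their values were seen. On simulated data the permutation test recovered 100% of genes with a 4-fold change among 21648 at an unadjusted p below 0.05. Limma recovered 76% of regions with an 8-fold change among 14523 at an adjusted p of 0.05. Simulated peak numbers had only counting (Poisson) spread around each gene's mean scaled to list length. Genes averaging few peaks were not given the change, so the 100% need not hold for these members. Recovery by the permutation test after adjustment, and by limma on 7816 regions, was not simulated. The members, gene lists and tests were chosen with earlier results of these data known. RefSeq promoters matched 6 of the 7 members; Fosl1 was not matched.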

Additional observations from a re-analysis of the deposited data

How the results depend on the processing

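No member or member region was called in any of the 7 counts of calls, and all 139 counts under alternatives were 0 as well, including those that left out each library in turn (lowest 0, highest 0), a q-value of at most 0.05, a −log10 q of at least 10, peaks outside repeat-masked sequence, a stricter overlap of 100 bp, a 10 kb window and ranking by fold. The smallest adjusted p of a member under any alternative was 0.0713, for E2 against vehicle with log2 fold in place of rank. Of 357 member differences under alternatives, 341 stayed within 1 SD of the value given, and 16 moved by more. None of these differences had passed a test, and 19 of the 357, from 7 differences, took the opposite sign: Fosl2 E2 against E2 plus fulvestrant went from -0.667 to 1 without E2 replicate 1 and 1.83 without E2 plus fulvestrant replicate 3; Jun E2 against E2 plus fulvestrant from 0.333 to -1.33 without E2 replicate 3, and E2 against vehicle from 1.33 to -0.333; and, without fulvestrant replicate 2, fulvestrant against vehicle from 0.667 to -1.5 at Fos, 1.67 to -1 at Junb and 3.67 to -2 at Jund. The remainder were other alternatives of these differences and of Jun fulvestrant against vehicle (-1.33 to 0.333 at a −log10 q of at least 10). Scaling to the list length, given with the results, is apart from these. The correlation of deviations was -0.57 to 0.44 over 18 pairs of equal replicate number and -0.60 to 0.67 over 36 others. Pairing by replicate number was thus not apparent, but these correlations do not test for a batch shared by some libraries. The paper states that limma served to take out batch effects in its ChIP-Seq and ATAC-seq analysis, and the labels name no batch. With a replicate block no member was called (0), and the smallest p was 0.204 for peak number and 0.389 for best rank (exact permutation); the block was not run for Fisher's test. The limma fit of peak numbers, the comparison with the 9 others, the interaction and the start-site test were chosen after seeing the data. With 3 libraries a treatment the permutation tests of 3 against 3 cannot go below p = 0.1, and peaks of 12 to 30 fragments can be missed in a shorter list.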
